A study of Mus musculus with 12 samples.

Results

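The genes described here are 9 genes of early B-cell identity, taken by name out of 21671 genes in the table, and all 9 had a row. They are the transcription factor genes Ebf1 and Pax5, the genes of the pre-B cell receptor complex Cd79a, Cd79b, Vpreb1 and Igll1, the recombinase genes Rag1 and Rag2, and Il7r, which encodes the specific chain of the receptor for interleukin 7. FL5.12 is an established mouse cell line of BALB/c origin, labelled prolymphocytic and described in the study as an IL-3-dependent B-cell progenitor line. All libraries came from FL5.12 cells that carried MycER, a fusion of MYC with the hormone-binding part of the oestrogen receptor that 4-hydroxytamoxifen (OHT) switches on. The transgene was introduced with a retrovirus and the cells were selected as a pool, so that the control cells carried it too. The 4 conditions had 3 libraries each. They were untreated cells, cells given 100 nM OHT for 72 hours in all (48 hours of priming and 24 hours more), cells given 135 nM IACS-010759, an inhibitor of mitochondrial complex I, for 24 hours (IACS), and cells given both (OHT_IACS).

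In the bone marrow, EBF1 and PAX5 act one after the other to commit progenitors to the B lineage and switch on the genes of the pre-B cell receptor. That receptor pairs an immunoglobulin heavy chain with a surrogate light chain, made by Vpreb1 and Igll1, and signals through the CD79A and CD79B pair. RAG1 and RAG2 cut the immunoglobulin genes for rearrangement, and interleukin 7 sustains the dividing progenitors through the chain made by Il7r.

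Values are RPKM, which scale the reads on a gene by the length of that gene and by the library's total. Library totals ran from 10376530 to 14550158. A floor of 3 reads was set, which is 0.206 to 0.289 RPM (reads scaled by the library's total alone). The exact Poisson 95% interval of a count of 0 in a library reaches 3.69 reads. Genes used by most cells were well above 0 in every library, with Actb between 101 and 134, Hprt between 40.6 and 53.3 and Tbp between 11.9 and 14.2 RPKM. Of the 21671 genes, 6220 were at 0 in every library.

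Of the 9 genes, 7 were not expressed above a trace. Pax5, Rag1 and Il7r had 0 reads in all 12 libraries. Igll1 had 1 read in all, Ebf1 had 3 and Rag2 had 8, and none of these exceeded 3 reads in any library. Vpreb1 had 18 reads over the 12 libraries. Cd79a and Cd79b passed the filter on low values (3 or more libraries with 1 RPKM or more), with 213 and 411 reads. For these 7 genes, known markers of pro-B and pre-B cells, the data thus went against the description of the line as a B-cell progenitor, and 9 genes do not settle what the line is. The 2 genes past the filter encode the signalling pair of the receptor, beside a single read on the surrogate light chain gene Igll1.

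**Figure D1:**
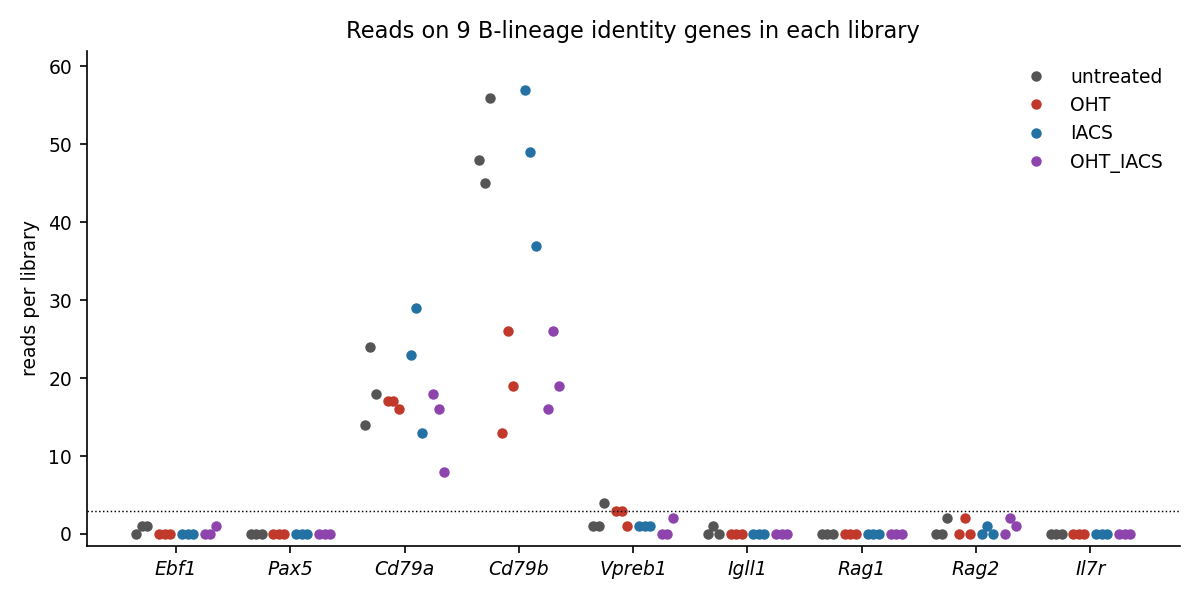
Reads per library (vertical axis) on each of the 9 genes (horizontal axis), with a point for each of 12 libraries coloured by condition and a dotted line at 3 reads. Cd79a and Cd79b stand clear of the line in every library, Vpreb1 reaches 4 reads in 1 library, and the other genes stay at or below 2.

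The commitment factors came first in this order of roles. Ebf1, on the plus strand of chromosome 11 (44617317 to 45008091, GRCm38), had 1 read in each of untreated replicates 2 and 3 and OHT_IACS replicate 3, and 0 in the other libraries. Its highest value was 0.0148 RPKM, below the 0.0361 to 0.0506 RPKM that 3 reads would give. Pax5, on the minus strand of chromosome 4 (44524757 to 44710487), was at 0 in every library. Neither gene passed the filter.

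The surrogate light chain genes lie close together on the minus strand of chromosome 16. Vpreb1 (16868403 to 16870843) had 1, 1 and 4 reads in untreated cells and 3, 3 and 1 in OHT. It had 1, 1 and 1 in IACS and 0, 0 and 2 in OHT_IACS. In reads, every pair of conditions overlapped or shared a value. Its values ran from 0 to 0.376 RPKM, and 3 reads would give 0.268 to 0.376. Without the filter, limma gave its largest difference in OHT_IACS against OHT, a log2 fold change of -1.21 (95% interval -2.25 to -0.16, unadjusted p of 0.0272, adjusted p of 0.127), which was not called. An exon of Vpreb1 overlaps one of Top3b on the opposite strand, and Top3b was at 5.19 to 6.74 RPKM, so that reads from either gene could not be told apart where the strand was not used in counting. A near-identical copy, Vpreb2, was at 0 in every library. How reads that align to both were counted is not given in the sources used here, so that the count of Vpreb1 may lack such reads. Igll1 (16860671 to 16863985) had its 1 read in untreated replicate 2, at 0.0318 RPKM.

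The recombinase genes sit side by side on chromosome 2. Rag1 (101638282 to 101649501, minus strand) was at 0 throughout. Rag2 (101624718 to 101632529, plus strand) had 2 reads in untreated replicate 3, in OHT replicate 2 and in OHT_IACS replicate 2. It had 1 read in IACS replicate 2 and OHT_IACS replicate 3, and 0 in the other 7 libraries. In each condition at least 1 library was at 0, and the highest value was 0.0499 RPKM. Exons of both genes overlap those of B230118H07Rik, which was read at 2.76 to 4.45 RPKM, and what the counting did with shared reads is not given in the sources used here. Il7r, on the minus strand of chromosome 15 (9505788 to 9530176), was at 0 in every library.

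Cd79b, on the minus strand of chromosome 11 (106311341 to 106314762, with up to 6 exons), gave the highest level of the 9. It fell after OHT, whether or not IACS-010759 was present. In untreated cells its values were 3.00, 2.58 and 3.27 RPKM, from 48, 45 and 56 reads. In OHT they were 1.05, 1.56 and 1.47 RPKM, from 13, 26 and 19 reads. No OHT library reached the lowest untreated one, a separation seen for 46.0% of all genes tested. The fall was 1.10 on the log2(RPKM + 0.1) scale (log2 fold change -1.10, SE 0.17, 95% interval -1.47 to -0.73), a 2.14-fold difference with a limma adjusted p of 0.000263. In this comparison 36.4% of 9744 genes tested were called at an adjusted p below 0.05, and 18.2% were called lower, so that a call was frequent among all genes. In bulk samples, fewer cells with the transcript and less of it per cell cannot be told apart.

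The same difference was seen between the conditions with the inhibitor. Cd79b was at 3.64, 2.98 and 2.77 RPKM in IACS, from 57, 49 and 37 reads. It was at 1.12, 1.84 and 1.34 RPKM in OHT_IACS, from 16, 26 and 19 reads. The groups again did not overlap, as for 42.3% of all genes tested. The log2 fold change was -1.09 (SE 0.17, 95% interval -1.45 to -0.72), a 2.12-fold difference with a limma adjusted p of 0.000436. Here 26.5% of all genes tested were called and 14.2% were called lower. This comparison shares no library with that of OHT against untreated, but both tests use the same estimate of the spread, from all 12 libraries.

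The inhibitor had no detectable effect on Cd79b. The log2 fold change was 0.05 in IACS against untreated (95% interval -0.31 to 0.42, limma adjusted p of 0.863), where 15.9% of all genes tested were called. It was 0.07 in OHT_IACS against OHT (95% interval -0.30 to 0.43, limma adjusted p of 0.815), where 23.7% were called. The interaction, which asks whether the response to the inhibitor differed with OHT, was 0.01 (95% interval -0.51 to 0.53, limma adjusted p of 0.984). These intervals leave room for changes of up to about the size of their bounds.

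Ordered by mean, Cd79b was at 3.13 ± 0.45 RPKM in IACS, 2.95 ± 0.35 in untreated cells, 1.43 ± 0.37 in OHT_IACS and 1.36 ± 0.27 in OHT (SD, n = 3 each). IACS and untreated, neighbours at the top of this order, did not differ beyond their spread, nor did OHT_IACS and OHT at the bottom. Pooled over the 3 libraries of a condition, it had 149 reads in untreated cells, or 3.53 RPM (exact Poisson 95% interval 2.99 to 4.14). The 58 reads in OHT made 1.65 RPM (1.25 to 2.14). The 143 reads in IACS made 3.77 RPM (3.18 to 4.44), and the 61 in OHT_IACS made 1.72 (1.31 to 2.21). These intervals cover counting error only.

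**Figure D2:**
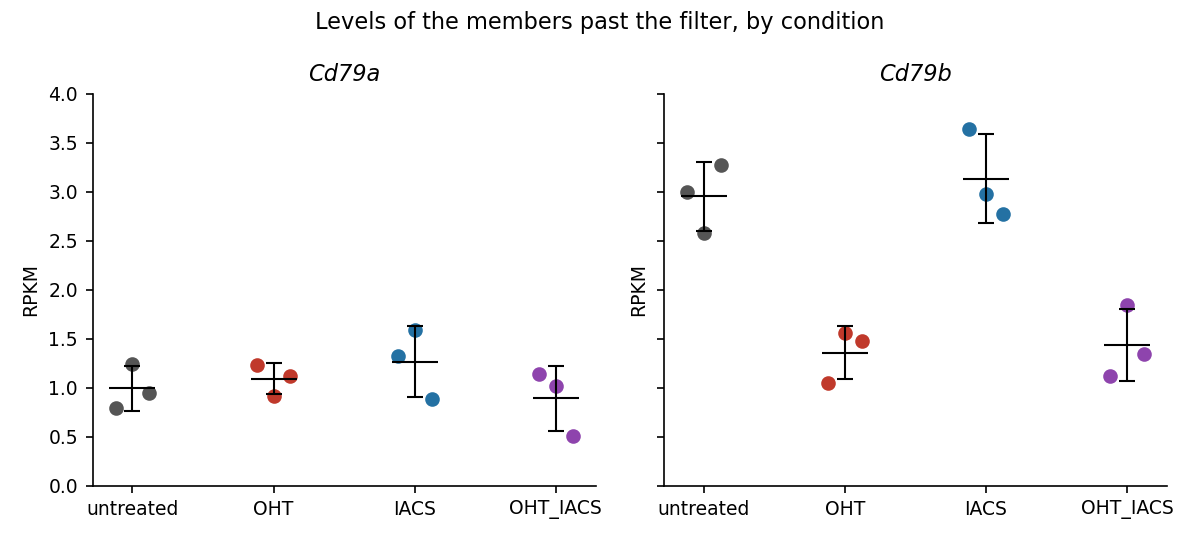
RPKM (vertical axis, from 0) of Cd79a and Cd79b in the 4 conditions, with a point for each library and a black bar for the mean with its SD (n = 3). All 6 Cd79b values with OHT lie between 1.05 and 1.84 and all 6 without it between 2.58 and 3.64, whereas the Cd79a conditions overlap.

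Cd79a encodes the partner chain of CD79B. It lies on the plus strand of chromosome 7 (24897381 to 24902197, 5 exons). Its values were 0.789, 1.24 and 0.95 RPKM in untreated cells, from 14, 24 and 18 reads. They were 1.23, 0.918 and 1.12 RPKM in OHT, from 17, 17 and 16 reads. In IACS they were 1.33, 1.59 and 0.880 RPKM, from 23, 29 and 13 reads. In OHT_IACS they were 1.14, 1.02 and 0.511 RPKM, from 18, 16 and 8 reads. Every pair of conditions overlapped, and the lowest single value was that of OHT_IACS replicate 3.

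None of the comparisons called Cd79a. Its log2 fold change was 0.11 in OHT against untreated (95% interval -0.47 to 0.70, limma adjusted p of 0.766) and 0.28 in IACS against untreated (-0.30 to 0.86, limma adjusted p of 0.528). It was -0.32 in OHT_IACS against OHT (-0.90 to 0.26, limma adjusted p of 0.421) and -0.49 in OHT_IACS against IACS (-1.07 to 0.10, limma adjusted p of 0.210). The interaction was -0.60 (-1.43 to 0.22, limma adjusted p of 0.536). The intervals were wider than those of Cd79b, and the interval after OHT alone did not reach the -1.10 of Cd79b. The means were 1.27 ± 0.36 RPKM in IACS, 1.09 ± 0.16 in OHT, 0.99 ± 0.23 in untreated cells and 0.89 ± 0.33 in OHT_IACS (SD, n = 3 each), and no neighbours in this order differed beyond their spread.

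**Figure D3:**
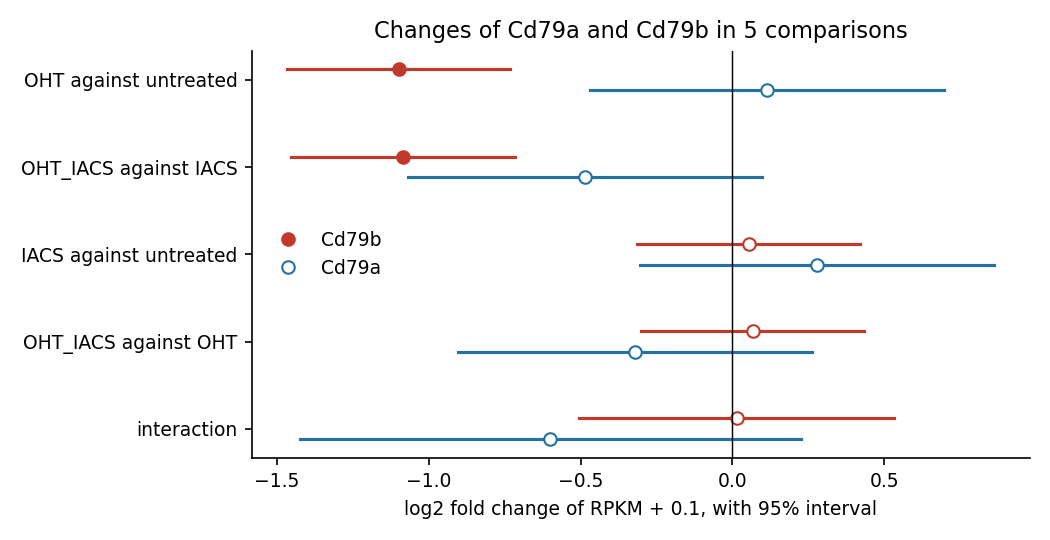
Log2 fold change of RPKM + 0.1 (horizontal axis) with its 95% interval for Cd79b (red) and Cd79a (blue) in 5 comparisons, filled where the limma adjusted p was below 0.05. The 2 comparisons of OHT place Cd79b at -1.10 and -1.09, and every other interval spans 0.

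The ratio of the pair within a library does not depend on how libraries are scaled. Cd79b stood at 2.08 to 3.80 times Cd79a in untreated cells and at 0.847 to 1.69 times in OHT, with no overlap. How often a ratio of other genes separates in this way was not computed. It stood at 1.87 to 3.15 times in IACS and 0.985 to 2.63 times in OHT_IACS, which overlapped. In OHT replicate 1 and OHT_IACS replicate 1, Cd79b lay below Cd79a, the order opposite to that in the other 10 libraries. This order rested on 13 reads against 17 and on 16 against 18, and the exact Poisson 95% intervals of these counts overlapped.

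Among all genes, Cd79a had a mean of 1.06 RPKM over the 12 libraries, above 56.4% of the genes in the table, and Cd79b one of 2.22, above 60.8%. The genes whose log2 values followed Cd79b most closely over the 12 libraries were Tnfrsf1b (Pearson r of 0.98), a receptor for tumour necrosis factor, Pecr (0.97), a peroxisomal reductase, and Nfam1 (0.97), a receptor with an ITAM of the kind that CD79B carries. A correlation above 0.8 with Cd79b was held by 7.51% of the genes tested. Those closest to Cd79a were Ttf2 (0.94), Spopl (0.84) and Zfp212 (0.81), with 0.0411% of genes above 0.8. The points of these correlations share their libraries and scaling, and they are given as a description.

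The promoters of the members are shown because the libraries held message for TCF3 (also called E2A) and for Myc, whose proteins bind E-boxes, but almost none for Ebf1. The 250 bases before each RefSeq start of transcription (GRCm38.p6) were taken for the 8 members with an entry there, with 9 promoters in all. Cd79b, the member that fell after OHT, had no entry, so its promoter was not searched for any motif. These motifs were searched on both strands. CAGGTG, an E-box of the kind that TCF3 binds, was present in 4 of these 8 members and in 17.2% of 32851 promoters of the same length. CACGTG, the E-box of MYC, was present in none of the 8 and in 6.02% of all promoters. TCCCNNGGGA, a palindrome of the kind that EBF1 binds, was present in none of the 8 and in 0.779% of all promoters. Only exact matches to these letters were counted, so that EBF1 sites with other letters were not looked for and may be present. In the 4 promoters below, which hold no exact match to the other motifs searched, capitals mark CAGGTG or its reverse complement. They are those of Cd79a (chr7:24897247-24897496, plus strand), Vpreb1 (chr16:16869256-16869505, minus strand), Igll1 (chr16:16863986-16864235, minus strand) and Rag1 (chr2:101649533-101649782, minus strand). RefSeq starts differ from the ends of the GENCODE gene spans given above for some genes. The Vpreb1 stretch lies within the GENCODE span of its gene, and the Cd79a stretch lies partly within its own.
Cd79a: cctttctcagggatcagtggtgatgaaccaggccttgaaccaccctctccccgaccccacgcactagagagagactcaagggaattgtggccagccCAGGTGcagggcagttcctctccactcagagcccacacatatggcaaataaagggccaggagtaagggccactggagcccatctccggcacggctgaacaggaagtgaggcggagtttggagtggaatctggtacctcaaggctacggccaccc
Vpreb1: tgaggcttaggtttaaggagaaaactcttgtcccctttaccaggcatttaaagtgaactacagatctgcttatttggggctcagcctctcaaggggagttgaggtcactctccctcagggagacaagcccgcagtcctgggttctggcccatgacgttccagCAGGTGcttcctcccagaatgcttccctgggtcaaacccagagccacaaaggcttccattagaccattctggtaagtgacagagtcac
Igll1: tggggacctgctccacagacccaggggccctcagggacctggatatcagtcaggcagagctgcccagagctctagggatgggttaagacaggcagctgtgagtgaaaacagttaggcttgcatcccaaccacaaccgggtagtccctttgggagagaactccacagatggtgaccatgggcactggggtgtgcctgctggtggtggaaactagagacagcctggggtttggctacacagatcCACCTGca
Rag1: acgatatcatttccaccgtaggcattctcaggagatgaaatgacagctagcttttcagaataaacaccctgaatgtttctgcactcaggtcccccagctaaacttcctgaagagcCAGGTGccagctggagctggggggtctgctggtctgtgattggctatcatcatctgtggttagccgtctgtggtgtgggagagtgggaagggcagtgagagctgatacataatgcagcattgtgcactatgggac
The first base of the motif lay 154 bases before the RefSeq start of Cd79a, 88 before that of Vpreb1, 8 before that of Igll1 and 135 before that of Rag1. Of these 4 genes, Cd79a was read in every library, at 0.511 to 1.59 RPKM, and Rag1 in none. The message for TCF3 itself was at 22.7 to 25.9 RPKM. A match of letters is a description and not a site of binding.

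Other B-lineage genes were measured by the same libraries. Of 77 listed, 76 were in the table and 47 passed the filter, whereas 12 were at 0 in every library. Those at 0 in every library included Blnk and Blk, which relay the signal of the B-cell receptor, and Dntt, which adds bases at the joints of rearranged genes. The genes of highest mean in the transcription factor list and in the receptor and signalling list were the transcription factor genes Cbfb (28.1 to 31.7 RPKM) and Myb (20.6 to 29.8), the phosphatase gene Ptpn6 (33.4 to 41.9) and the kinase subunit gene Pik3cd (25.1 to 39.4). Hmgb1 (42.1 to 53.2) and Hmgb2 (29.1 to 36.8), which help RAG proteins bend DNA, were read beside Rag1 and Rag2 at or near 0. The same held for the IL-7 pathway, where Il2rg (9.23 to 13.9), the chain that pairs with IL-7R, and Jak1 (11.5 to 15.6) were read beside an Il7r at 0. Among surface genes the highest was Spn (43.1 to 54.6), or CD43.

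**Figure D4:**
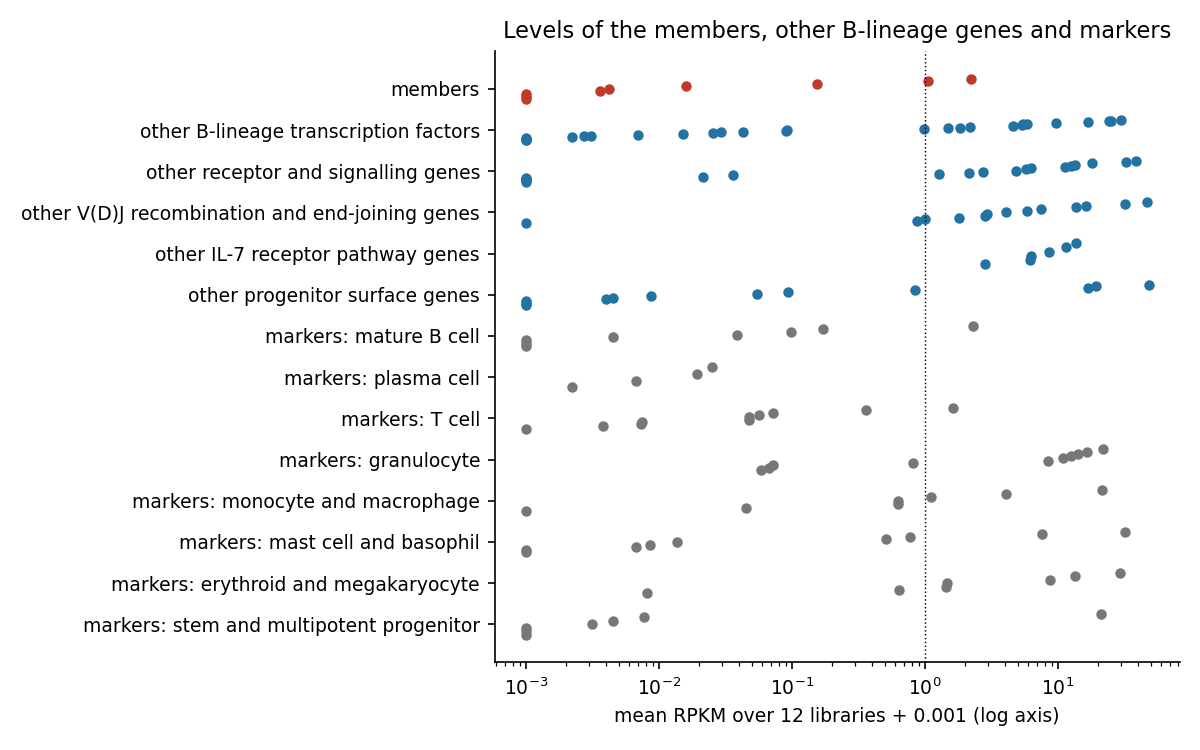
Mean RPKM over 12 libraries plus 0.001 on a log axis (horizontal) for each gene of the members (red), the other B-lineage lists (blue) and the marker lists (grey), with a dotted line at 1 RPKM. Of the members 2 lie to the right of the line, at 1.06 and 2.22, and 3 lie at 0.

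After OHT, 20 of these 47 genes were called against untreated, 17 lower and 3 higher, with a median log2 fold change of -0.11 beside 0.01 over all genes tested. This is 42.6% of the 47, beside 36.4% of all genes tested, of which 18.2% were lower and 18.1% higher. The receptor and signalling list had 8 lower and 1 higher of 12, among them Dok3 (-0.93), an adaptor that restrains receptor signalling, Cd72 (-0.87), an inhibitory coreceptor, and Bank1 (-0.79), a scaffold protein. The transcription factor list had 3 lower of 13, the IL-7 pathway list 3 lower and 1 higher of 6, the recombination and end-joining list 1 lower and 1 higher of 12, and the surface list 2 lower of 4. The largest rises were those of Pik3ap1 (0.78), an adaptor for PI3-kinase, Xrcc5 (0.28), of the Ku complex, and Stat5b (0.27). In OHT_IACS against IACS 17 were called (36.2%, beside 26.5% of all genes tested), 15 lower and 2 higher, led by Id2 (-1.09), Bank1 (-0.89) and Cd72 (-0.72). The fall of Id2 rested on 3, 7 and 13 reads in OHT_IACS (SE 0.33, limma adjusted p of 0.0282). Id2 was not called in OHT against untreated (log2 fold change -0.61, limma adjusted p of 0.166). Lower in both comparisons were 10 genes, 10 of 17 in the first and 10 of 15 in the second, and higher in both were Pik3ap1 and Stat5b. The share of all genes tested that was called in both was not computed, so that this overlap is a description only.

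In IACS against untreated 12 were called (25.5%, beside 15.9% of all genes tested, 8.14% higher and 7.73% lower), 11 higher and 1 lower, with the largest rises in Il2ra (0.86), Fyn (0.62) and Pik3ap1 (0.62) and the fall in Poll (-0.16). In OHT_IACS against OHT 16 were called (34.0%, beside 23.7% of all genes tested, 11.9% higher and 11.8% lower), 13 higher and 3 lower, with the largest rises in Crlf2 (0.87), Fyn (0.72) and Jak3 (0.52) and the largest falls in Xrcc6 (-0.22), Ptpn6 (-0.21) and Poll (-0.17). The interaction called 0.144% of all genes tested by limma and 0 of these 47, of which 7 had an unadjusted p below 0.05, and limma voom on the reads also called 0. Of the 2 members tested, 0 had an unadjusted p below 0.05 there or in either comparison of the inhibitor, and limma voom called 0 of them in these 3 comparisons.

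**Figure D5:**
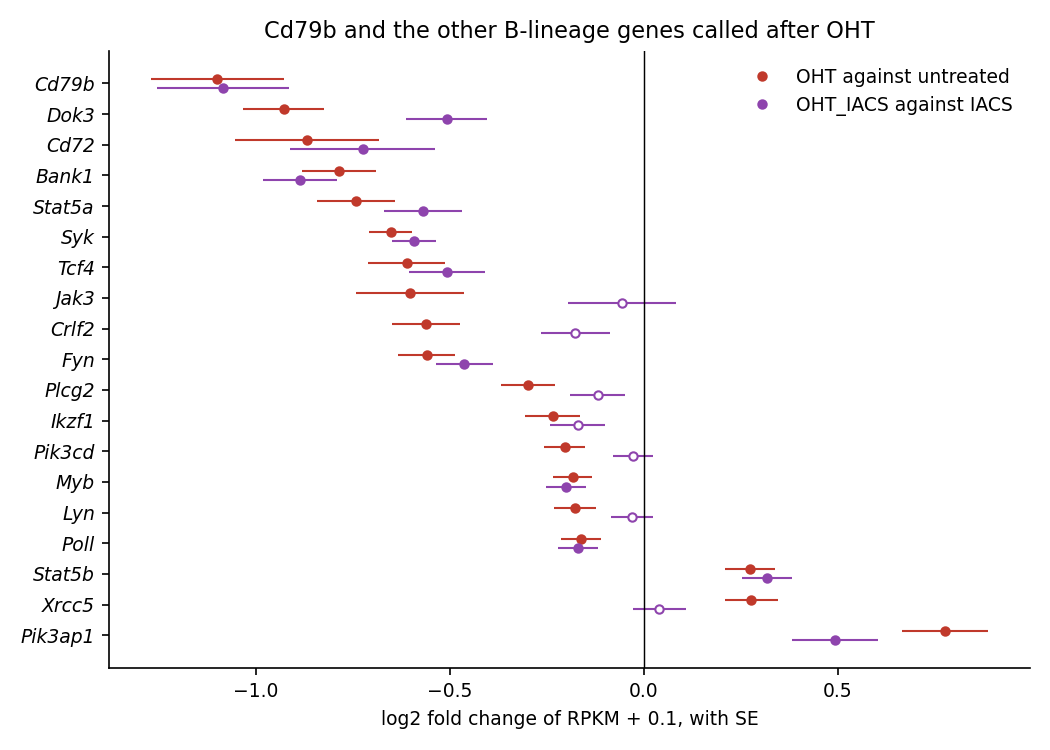
Log2 fold change of RPKM + 0.1 with its SE (horizontal axis) in OHT against untreated (red) and OHT_IACS against IACS (purple) for Cd79b and the 18 genes called in the former from the other B-lineage lists, the surface list left out, filled where the limma adjusted p was below 0.05. Cd79b, at -1.10 and -1.09, has the lowest value of the genes drawn in both comparisons.

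Markers of other cell types went both ways after OHT. Over all genes tested, 18.2% were called lower and 18.1% higher in this comparison. Of 10 granulocyte markers 7 passed the filter, and 6 of them fell after OHT. The 10 markers summed to 116 to 123 RPKM in untreated cells, 53.8 to 57.7 in OHT, 105 to 127 in IACS and 49.4 to 54.2 in OHT_IACS. They were led in level by Cebpe (17.3 to 25.2 RPKM) and S100a9 (3.36 to 33.1), and Elane, Ltf and Camp did not pass the filter. In OHT_IACS against IACS all 7 fell, where 14.2% of all genes tested were called lower. Their part in the fall of Cd79b was not tested. The T-cell list had 1 of 10 past the filter, Cd3g (0.911 to 2.32 RPKM), with Cd3e at 0, and the mature B-cell list 1 of 8, Cd74 (0.923 to 4.49), with Ms4a1, H2-Aa and H2-Ab1 at 0. Cd3g fell after OHT (log2 fold change -0.88, limma adjusted p of 0.00061) and Cd74 rose (1.36, limma adjusted p of 8.26e-05), so that Cd79b and Cd74 moved in opposite directions. The plasma-cell list had 0 of 4 past the filter. Erythroid and megakaryocyte markers had 5 of 7, 2 higher and 2 lower after OHT, with Gata1 at 26.0 to 32.9 and Itga2b at 10.9 to 16.5 RPKM. Mast cell and basophil markers had 3 of 9, 1 higher and 1 lower after OHT, with Gata2 at 24.3 to 37.1 and Cpa3 at 4.05 to 14.2. Monocyte and macrophage markers had 3 of 7, 1 higher and 1 lower after OHT, with Emr1 at 16.5 to 28.8 and Ccr2 at 3.66 to 4.81, and stem and multipotent progenitor markers had 1 of 7, Mecom at 18.4 to 24.6, which was called lower after OHT, with Cd34 and Kit at 0. Cells given OHT also had less Myc (log2 fold change -0.81) and Bcl2 (-0.72) message, which does not check the MycER protein.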

How the data were processed

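RNA was measured in 12 libraries of FL5.12 MycER cells, in the 4 groups of the labels. Ribosomal RNA was depleted and the authors, per the labels, used TopHat2 2.0.8, SAMtools, featureCounts 1.4.5-p1 and DESeq2 with the build mm9. Whether counting used strand is not given in the sources used here. The deposited values are RPKM per gene and library, made by the authors. They also deposited DESeq2 fold changes and adjusted p-values, which were not used. The number of columns of values per library left unused was 0.

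Since RPKM are not counts, limma 3.58.1 (R 4.3.3) was run on log2(RPKM + 0.1) after scaling by median ratios, with a mean-variance trend and all 12 libraries in one fit. The 9744 genes tested had 1 RPKM or more in 3 or more libraries. Tests were two-sided, adjusted by Benjamini-Hochberg within each of 5 comparisons, with a threshold of 0.05. Fold changes on this scale understate those of low genes. The study describes the libraries as biological replicates. P-values measure the spread between them. Reads, lengths and totals were worked out from the RPKM steps, with whole multiples (relative tolerance 1e-06) for 15451 of 15451 genes above 0. Reads on genes ran from 4199265 to 5762338 per library. In simulated data of OHT against untreated (9665 genes) 192 of 200 changed and 9 of 9465 unchanged genes were called. All changes there had the same size, and the same spread beyond counting error was set for every gene. These rates thus need not hold for genes as low as the members. In another simulation 12 of 12 totals and 2899 of 2906 genes were recovered.

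Positions are from GENCODE vM21 (GRCm38) and promoters from RefSeq (GRCm38.p6), since no mm9 annotation was used here. The members and lists were chosen with earlier results of these data known. Beside the 9 members there were 5 lists of other B-lineage genes and 8 of markers. Named are all members, the 3 largest rises and falls among called genes of the other lists in each comparison, the 2 genes of highest mean in each list (some items are not reported here), and the 3 genes most correlated with each member tested. Others (Actb, Hprt, Tbp, Top3b, Vpreb2, B230118H07Rik, Tcf3, genes at 0 or under the filter) were named after their values were seen. Alternatives were other pseudocounts, filters and scalings, a replicate block, no trend, a depth covariate, limma voom on reads, the compared groups alone, and leaving out each library. Python 3.11.15, numpy 2.4.6, pandas 2.3.3, scipy 1.17.1 and matplotlib 3.10.9 were used.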

Additional observations from a re-analysis of the deposited data

How the results depend on the processing

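Over 16 alternatives, Cd79b was called lower in each, with log2 fold changes from -1.19 to -0.76 in OHT against untreated (limma adjusted p from 0.000176 to 0.00921) and from -1.26 to -0.76 in OHT_IACS against IACS (0.000233 to 0.00312). The smallest sizes came with a pseudocount of 1. A filter of 5 RPKM left no member to test. Cd79a was called in none. Values near 0 changed sign. Quantile normalization gave -0.027 for Cd79b in OHT_IACS against OHT and -0.071 for its interaction, which was also -0.014 with RPKM as deposited, -0.091 with the library total as covariate and -0.013 with limma voom. Leaving out each library in turn gave -0.022 to 0.27 for Cd79a in OHT against untreated, -0.044 to 0.12 for Cd79b in IACS against untreated, -0.10 to 0.21 in OHT_IACS against OHT and -0.16 to 0.16 for its interaction. The counts of members called were 1, 0, 0, 1 and 0 under each alternative that tested them. Those of other B-lineage genes ran from 15 to 24, 9 to 17, 12 to 19, 12 to 19 and 0 to 0 in the 5 comparisons in the order above, interaction last. Of 18 pairs of libraries with the same replicate number, 0 had deviations correlated above 0.1 (-0.18 to 0.09). No shared deviation by number was thus seen, but this cannot show whether libraries of the same number were handled together. A replicate block gave -1.10 (limma adjusted p of 0.000662) for Cd79b in OHT against untreated and -1.09 (0.00104) in OHT_IACS against IACS, and it called 21 and 16 other B-lineage genes there. Of the 7 members under the filter, 6 had at most 3 reads in every library. With no filter 4 of them could be fitted and 0 were called.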
